A study of Mus musculus with 6 samples.

Results

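Ribosome footprints of 10 genes of DNA methylation and histone modification, among them the recurrent clonal hematopoiesis genes Dnmt3a, Tet2 and Asxl1, were compared between Mov10 knockout and wild-type (WT) mouse cells. The genes were taken by symbol from the deposited table, which listed 56748 genes, and each of the 10 symbols matched 1 row. They are Dnmt1, Dnmt3a and Dnmt3b, Tet1, Tet2 and Tet3, Asxl1 and Asxl2, Kmt2a, and Kdm6a. All 10 were among the 17114 genes that passed the filter on low values (a mean of 1 normalized read or more).

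In blood stem cells a small set of chromatin genes is mutated far more often than others, and the mutant clone expands without overt disease, a state called clonal hematopoiesis. Dnmt1 copies CpG methylation to the new DNA strand after replication, whereas Dnmt3a and Dnmt3b place it on unmethylated sites. The TET enzymes oxidise methylated cytosine and so start its removal. Asxl1 and Asxl2 are partners of the histone H2A deubiquitinase Bap1, Kmt2a (also called MLL1) methylates histone H3 (the mark H3K4) and maintains Hox gene expression, and Kdm6a (UTX) demethylates H3K27.

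Each library came from Lin-c-Kit+ cells, a progenitor gate whose cell type is labelled hematopoietic stem cells. They were collected at 12 days after a dose of 4.5 Gy, so that both genotypes were irradiated. The genotypes were WT, with 3 libraries, and Mov10 KO, with 3 libraries. Neither the strain, the age, the sex nor the kind of Mov10 allele is given in the sources used here. Fragments of 24 to 36 nt protected by ribosomes were sequenced, and a gene's value is its read count divided by the size factor of the library (normalized reads). Whether each replicate came from its own animal is not labelled, and the p-values may therefore measure technical spread only. Footprints reflect mRNA amount as well as translation, and mRNA was not analysed here.

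The WT libraries held 2260348 to 2499634 reads and the knockout libraries 1118345 to 1352517, so depth and genotype could not be told apart. Mov10 itself was lower in 3 of 3 knockout libraries (107 ± 3.13 against 62.1 ± 23.4 normalized reads, mean ± SD, n = 3 each), but did not pass the threshold (limma adjusted p = 0.0598). It still held 46.3 to 89.0 normalized reads in the knockout, and over 21 alternatives its limma, edgeR or DESeq2 adjusted p ran from 0.00692 to 0.205, with 5 past the threshold. Kit, which defines the gate, was read at 1099 ± 15.8 in WT against 1122 ± 35.7 in the knockout, and Cd34 at 99.5 against 73.9. Of the 14 gate and stem or progenitor markers tested 2 (Cd48 and Spi1) were called higher and 12 were not called, and their summed level was 2110 to 2207 in WT and 2267 to 2486 in the knockout. Within that list the stem cell markers Procr and Slamf1 were close to 0 in both genotypes, at 1.30 and 1.29 in WT and 0.929 and 0.447 in the knockout. Of 14 markers listed for cells that the gate should remove, 3 were higher in the knockout and 1 lower. Their summed level was 1680 to 1974 in WT and 2381 to 2621 in the knockout. That list holds Ptprc (CD45), which stem and progenitor cells also express, so the count and sum are not of removed cells alone. Of 10 erythroid markers 4 were higher and 1 lower, with sums of 749.9 to 802 and 1919 to 1995. Of 10 neutrophil and granule markers listed, Camp was left out because its WT and knockout values appear under each other's headings. Of the 9 tested 4 were higher and 3 lower, and their sum was 30974 to 36903 in WT and 46398 to 48356 in the knockout. These calls are from the limma test given below, which called 21.2% of all genes tested, a share not matched for abundance. The called share was 14.3% for the gate list, 28.6% for the removed-cell list and 77.8% for the neutrophil list. That of the erythroid list lay between 28.6% and 77.8%. The part of lineage, erythroid and neutrophil cells in the results was not tested. In bulk samples, fewer cells of a type and less RNA per cell cannot be told apart.

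Dnmt1 and Kdm6a rose in the knockout, and none of the other 8 genes passed the test. The test was limma on log2(normalized reads + 1) over all genes, with calls at a Benjamini-Hochberg adjusted p under 0.05. Across the genome it called 21.2% of genes, 10.3% higher and 10.9% lower in the knockout, so 2 calls among 10 genes is close to that share. The share was larger among well-read genes. Fitted alone, the 6307 genes averaging 50 normalized reads or more gave 2690 calls. That fit left out Dnmt3b and Tet1, and of the members in it 2 were called higher and 1 (Kmt2a) lower. No member was called lower by limma, by edgeR or by DESeq2, while 1 (Kmt2a) had an unadjusted p under 0.05 and limma-voom called that 1. edgeR called 29.5% and DESeq2 22.0% of all genes with an adjusted p. The median log2 fold change of the 10 genes was 0.07, beside -0.17 for all genes tested. In 4 of the 10, 2 higher and 2 lower, the knockout libraries did not overlap the WT libraries, which was the case for 39.8% of all genes tested. The authors' deposited table gave the same 2 genes an adjusted p under 0.05, and no other member. By the authors' values 3310 genes passed, 11.8% of the 28104 with a p-value, a base not counted by adjusted p. That share is therefore not comparable with the 22.0% of DESeq2, where 3309 of 15041 genes with an adjusted p passed.

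**Figure D1:**
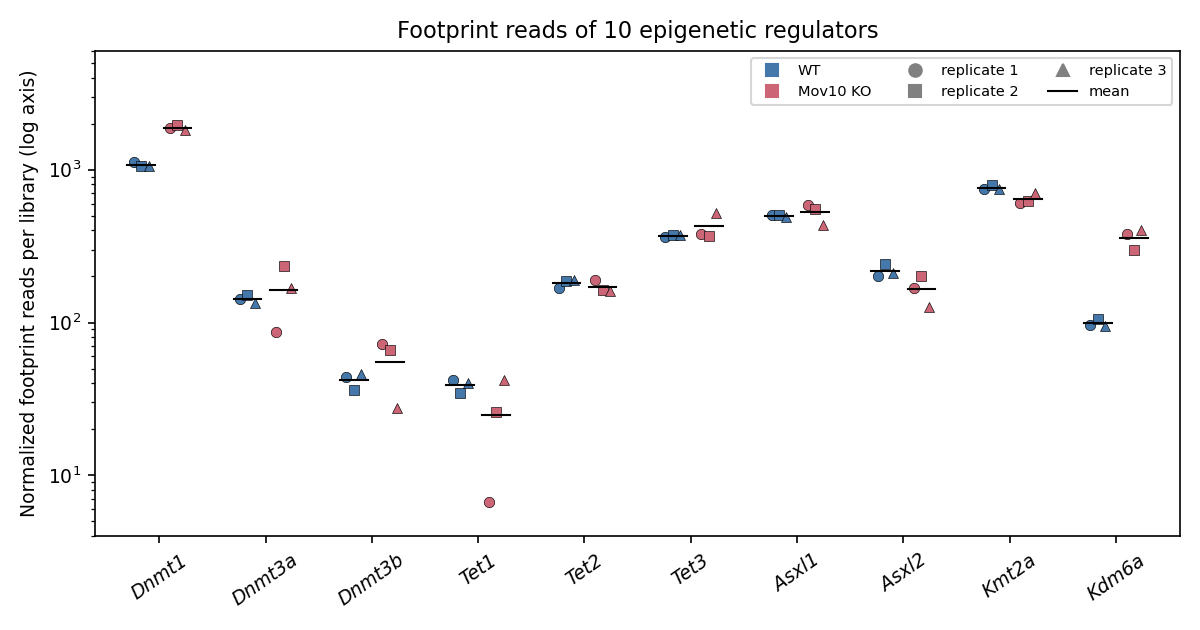
Normalized footprint reads of the 10 genes on a log axis, with 1 point per library (blue WT, red Mov10 KO, marker by replicate) and a bar for the mean of 3. The Dnmt1 and Kdm6a points of the knockout lie above all WT points, those of Asxl2 and Kmt2a lie below them, and Dnmt3a, Dnmt3b and Tet1 scatter widely in the knockout.

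Dnmt1 (ENSMUSG00000004099, chromosome 9, 20818505 to 20871184, minus strand, GRCm39) was the most heavily read member. Its 3 WT libraries held 1123, 1065 and 1049 normalized reads and its 3 knockout libraries 1872, 1957 and 1804. Every knockout library lay above every WT library, and the replicates of each genotype differed by little. The mean rose from 1079 ± 38.9 to 1878 ± 76.5, 1.74-fold higher, with a log2 fold change of 0.80 (SE 0.06, 95% interval 0.65 to 0.95, limma adjusted p = 1.01e-04). Dnmt1 stayed past the threshold in all 21 alternatives, with log2 fold changes of 0.29 to 0.83. The lowest value, 0.29 (1.22-fold, limma adjusted p = 0.0141), came from cyclic loess, which removes the trend of fold change with abundance in these libraries.

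RefSeq places 3 starts on Dnmt1, and the windows around them differ in CpG content, the substrate of the enzyme itself. The outermost are printed because Dnmt1 is a called member whose reads are not split by start. Each window runs from 250 bases before a start to 50 after it (GRCm38.p6, RefSeq), with CG dinucleotides in capitals. The upstream window, chr9:20959839-20960138 on the minus strand, holds 2 CG, and the downstream window, chr9:20952574-20952873 on the minus strand, holds 33, more than 91.4% of 32851 promoter windows.
Dnmt1 upstream start: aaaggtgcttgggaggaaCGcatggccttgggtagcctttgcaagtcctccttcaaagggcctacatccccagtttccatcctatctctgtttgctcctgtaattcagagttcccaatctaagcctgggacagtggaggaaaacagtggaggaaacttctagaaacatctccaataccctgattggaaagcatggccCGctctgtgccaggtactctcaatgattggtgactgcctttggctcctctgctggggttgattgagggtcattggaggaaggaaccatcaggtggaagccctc
Dnmt1 downstream start: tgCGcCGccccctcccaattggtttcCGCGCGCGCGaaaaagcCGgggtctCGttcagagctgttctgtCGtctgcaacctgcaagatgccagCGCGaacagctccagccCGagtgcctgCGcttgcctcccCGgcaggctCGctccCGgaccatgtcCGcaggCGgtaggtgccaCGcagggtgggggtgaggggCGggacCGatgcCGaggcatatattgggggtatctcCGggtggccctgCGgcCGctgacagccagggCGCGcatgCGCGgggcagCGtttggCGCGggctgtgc
The middle window holds 12 CG. The downstream window also holds TTTGGCGC on either strand, a sequence of the kind bound by E2F factors, which is found in 0.514% of all windows. The table gives 1 value per gene, so it does not show from which start the footprinted Dnmt1 mRNA came.

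Kdm6a (ENSMUSG00000037369, X chromosome, 18028814 to 18146175, plus strand, GRCm39) showed the largest fold change of the 10 genes. Its WT libraries held 96.7, 106 and 95.4 normalized reads and its knockout libraries 377, 296 and 402. The lowest knockout library was well above the highest WT library. The mean rose from 99.4 ± 5.87 to 358 ± 55.5, 3.60-fold higher (95% interval of the fitted fold 2.77 to 4.55), with a log2 fold change of 1.83 (SE 0.16, interval 1.47 to 2.19, limma adjusted p = 1.35e-04). The call held in all 21 alternatives, with log2 fold changes of 1.60 to 1.96. No other gene of the table overlaps Kdm6a with reads. Its RefSeq promoter window, chrX:18162325-18162624 on the plus strand (GRCm38.p6), is shown for comparison with that of Dnmt1, with CG in capitals.
Kdm6a start: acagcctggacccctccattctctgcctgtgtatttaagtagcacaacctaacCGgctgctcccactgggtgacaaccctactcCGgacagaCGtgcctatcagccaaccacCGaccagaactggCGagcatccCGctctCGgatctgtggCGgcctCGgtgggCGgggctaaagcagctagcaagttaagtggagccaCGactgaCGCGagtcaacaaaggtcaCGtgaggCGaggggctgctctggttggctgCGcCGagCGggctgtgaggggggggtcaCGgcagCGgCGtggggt
This window holds 21 CG, more than 75.2% of all windows, and 1 match to GGGCGG on either strand, which 35.7% of windows hold. Over all 10 genes, which matched 14 windows, the CG count ran from 2 to 57, with the most at Tet2, beside a median of 7 over all windows.

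Kdm6a lies on the X chromosome and is known to escape X inactivation in mice, so sex-linked genes were read beside it. Xist, the RNA of the inactive X, rose from 113 ± 15.7 to 354 ± 73.4, 3.14-fold higher (limma adjusted p = 6.31e-04). Of the Y-linked genes 2 fell, Kdm5d from 70.9 ± 6.71 to 16.8 ± 4.32 and Eif2s3y from 73.2 ± 3.70 to 23.4 ± 1.44 (limma adjusted p = 0.00380 and 0.00442). Both genotypes thus held reads of Xist and of Y-linked genes, in different proportions. Uty, the Y-linked paralog of Kdm6a, was read at 108, 86.5 and 99.5 in the WT libraries and at 96.6, 21.0 and 42.0 in the knockout libraries, which overlap, and Ddx3y at 241 ± 11.4 and 172 ± 61.8, with adjusted p of 0.132 and 0.168. Usp9y had no read. Of the 9 sex-linked genes tested 3 rose and 2 fell (55.6% called, against 21.2% of all genes tested). With a library left out 2 to 4 rose and 1 to 3 fell, and 1 rose with library totals or cyclic loess. The summed level of the 4 Y-linked genes with reads was 462 to 510.3 in WT and 184 to 367 in the knockout.

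Other X-linked genes known to escape inactivation changed by less than Kdm6a. Ddx3x rose 1.35-fold and Usp9x 1.35-fold (limma adjusted p = 0.00668 and 0.0152). Kdm5c, at 288 normalized reads in WT against 371 in the knockout, missed the threshold (limma adjusted p = 0.0524), as did Eif2s3x at 71.1 against 85.4 (adjusted p = 0.895). Kdm6b, the autosomal paralog, rose from 101 ± 1.57 to 147 ± 13.7, 1.45-fold higher (limma adjusted p = 0.0460). Within a library Kdm6a stood at 0.933 to 1.04 times the reads of Kdm6b in WT and 1.93 to 2.87 times in the knockout, a ratio that does not depend on scaling. The ratio was chosen after the values were seen and is given as a description. The sex of the mice is not labelled, and the part of the sex-linked difference in the Kdm6a result was not tested.

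**Figure D2:**
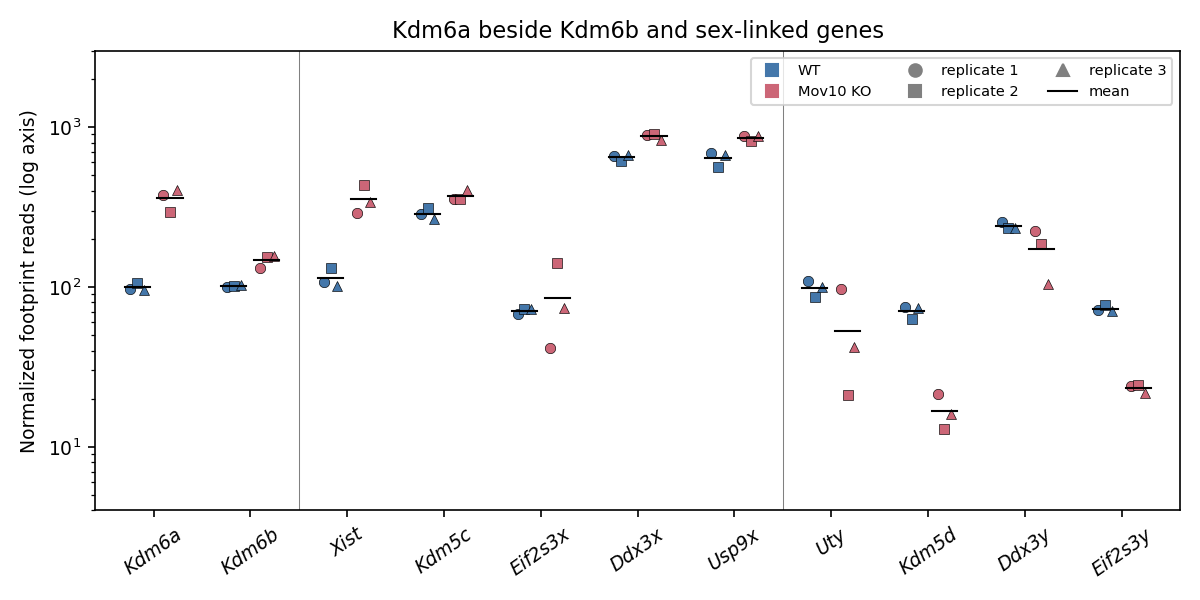
Normalized footprint reads, on a log axis, of Kdm6a and Kdm6b (left), Xist and X-linked genes (middle) and Y-linked genes (right), with 1 point per library and a bar for the mean. Kdm6a and Xist are higher in every knockout library, while Kdm5d and Eif2s3y are lower in every knockout library.

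Among the de novo methyltransferases, Dnmt3a (ENSMUSG00000020661, chromosome 12, 3856007 to 3964443, GRCm39) held 142, 152 and 134 normalized reads in the WT libraries and 87.2, 235 and 168 in the knockout libraries. The WT libraries lay close together, and the knockout libraries lay on both sides of them. The means were 142 ± 9.02 and 163 ± 73.8, and the log2 fold change of 0.08 had a 95% interval of -0.64 to 0.81 (limma adjusted p = 0.876). The variance among knockout libraries was 23.4 times what counting error gives, against 0.882 times in WT. Its direction depended on single libraries, at 0.48 without knockout replicate 1 and -0.23 without knockout replicate 2.

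Dnmt3b (ENSMUSG00000027478, chromosome 2, 153491370 to 153529650, GRCm39) was read less, at 44.1, 36.2 and 46.3 in WT and 72.4, 66.3 and 27.5 in the knockout. Knockout replicate 3 lay below all WT libraries and the other two above them. The log2 fold change was 0.27 (95% interval -0.62 to 1.17, limma adjusted p = 0.663), so a rise of up to 2.26-fold or a level down to 0.648 of WT lies within the interval. The 3 enzymes together rose from 1264 ± 41.3 to 2096 ± 141 normalized reads, a sum that is mostly Dnmt1.

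Of the TET genes, Tet2 (ENSMUSG00000040943, chromosome 3, 133169440 to 133250900, GRCm39) varied least in the knockout. It held 169, 187 and 189 normalized reads in WT and 189, 163 and 161 in the knockout. The groups overlapped, with a log2 fold change of -0.09 (95% interval -0.41 to 0.23, limma adjusted p = 0.697), an interval that leaves out changes beyond 0.753-fold and 1.17-fold. Tet3 (ENSMUSG00000034832, chromosome 6, 83339355 to 83436066, GRCm39), the most read of the 3, held 365, 373 and 375 in WT and 381, 370.4 and 524 in the knockout. Knockout replicate 3 stood apart from the other 5 libraries, and the log2 fold change of 0.18 did not pass (95% interval -0.15 to 0.50, limma adjusted p = 0.418).

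Tet1 (ENSMUSG00000047146, chromosome 10, 62640349 to 62744775, GRCm39) was the least read member. It held 42.2, 34.4 and 40.2 normalized reads in WT and 6.71, 25.9 and 42.0 in the knockout, where these stand for 5, 16 and 29 reads. Knockout replicate 3 was at the WT level and the others were below it. The log2 fold change of -0.94 had the widest interval of the 10 genes (95% interval -2.33 to 0.44, limma adjusted p = 0.313), and it was -0.23 without knockout replicate 1.

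Asxl1 (ENSMUSG00000042548, chromosome 2, 153187749 to 153245927, GRCm39) held 504, 505 and 491 normalized reads in WT and 590.1, 552 and 434 in the knockout. The WT values were nearly equal, and the knockout values lay on both sides of them, with a log2 fold change of 0.06 (95% interval -0.22 to 0.34, limma adjusted p = 0.767). Asxl2 (ENSMUSG00000037486, chromosome 12, 3476857 to 3556852, GRCm39) held 202, 243 and 211 in WT and 168, 201 and 126 in the knockout. Every knockout library was below every WT library, as in 22.9% of all genes tested, but by a narrow margin between 201 and 202. The log2 fold change of -0.43 did not pass (95% interval -0.86 to 0.00318, limma adjusted p = 0.149), though it passed with library totals (-0.66, adjusted p = 0.0378) and without knockout replicate 2 (-0.58, adjusted p = 0.0481). A noncoding gene on the opposite strand, 1110002L01Rik, overlaps Asxl2 and had 25.7 reads in WT against 60.4 in the knockout (normalized), and whether counting used the strand is not stated.

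Kmt2a (ENSMUSG00000002028, chromosome 9, 44714652 to 44792594, minus strand, GRCm39) held 749, 789 and 753 normalized reads in WT and 609, 626 and 699 in the knockout. All knockout libraries were below all WT libraries. The means were 764 ± 22.1 and 645 ± 47.8, 1.18-fold lower, with a log2 fold change of -0.25 (SE 0.08, 95% interval -0.44 to -0.05) that missed the threshold (limma adjusted p = 0.0728). Whether Kmt2a passed depended on the processing, as it did without knockout replicate 3 (-0.31, adjusted p = 0.0237) and in 4 other alternatives.

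**Figure D3:**
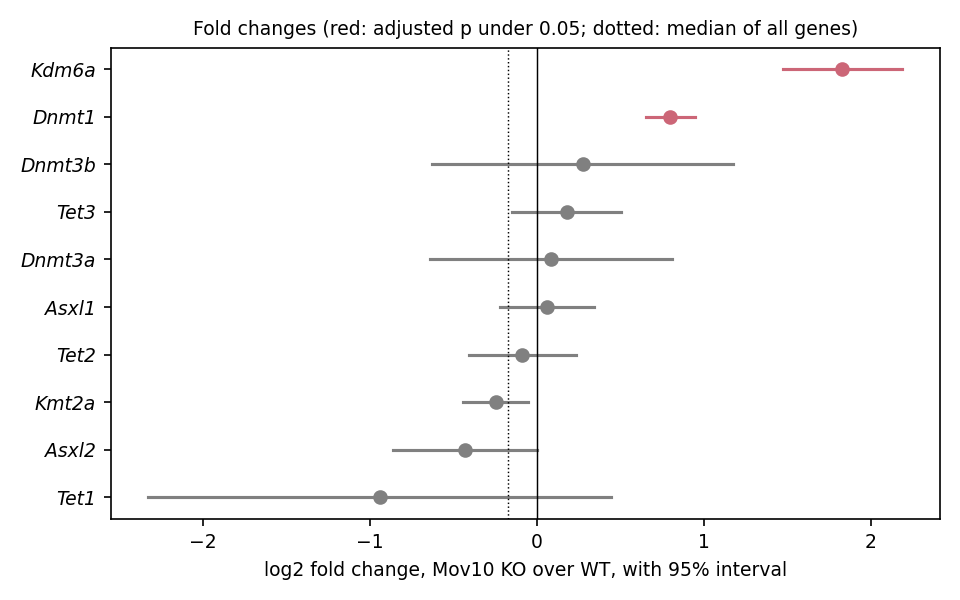
Log2 fold change of each gene, Mov10 KO over WT, with its 95% interval from limma. Red marks an adjusted p under 0.05, and the dotted line is the median of all genes tested (-0.17). The intervals of Kdm6a and Dnmt1 lie to the right of 0, that of Kmt2a lies to the left of 0, and the others cross it.

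For all 10 genes the coefficient of variation was larger among knockout than among WT libraries. It ran from 1.43% (Tet3) to 12.6% (Dnmt3b) in WT and from 4.08% (Dnmt1) to 71.0% (Tet1) in the knockout. Over the 6307 genes whose mean reached 50 normalized reads the median was 7.61% in WT and 21.5% in the knockout, so a wider scatter in the knockout was general among genes. Dnmt1 and Tet2 were the only members whose variance relative to counting error was not larger in the knockout (2.14 in WT and 2.03 in the knockout for Dnmt1, 1.04 and 1.03 for Tet2). Knockout replicate 1 was the lowest knockout library for Dnmt3a, Tet1 and Kmt2a, and replicate 2 for Tet3 and Kdm6a. Replicate 3 was the lowest for Dnmt1, Dnmt3b, Tet2, Asxl1 and Asxl2, so no single library was low for all.

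Levels of different genes were set side by side only as normalized reads per kilobase of the gene length in the table. That length includes untranslated sequence, which ribosomes mostly leave unread, so genes with long untranslated parts read low on this scale. In WT Dnmt1 led with 146 ± 5.28 reads per kilobase, followed by Asxl1 with 67.1 ± 1.08, Kmt2a with 45.8 ± 1.33 and Tet3 with 22.2 ± 0.318. Asxl2 (13.7 ± 1.35), Kdm6a (11.9 ± 0.700), Tet2 (10.8 ± 0.657), Dnmt3a (8.56 ± 0.542) and Dnmt3b (8.27 ± 1.04) followed, and Tet1 was last with 2.52 ± 0.263. Only Dnmt3a and Dnmt3b overlapped as neighbours in this order. Dnmt1 was above 97.9% of 13457 protein-coding genes tested and Tet1 above 25.4%. In the knockout Kdm6a moved up to the third place with 42.7 ± 6.62, where it overlapped Kmt2a at 38.7 ± 2.87. Dnmt3b, Asxl2, Tet2 and Dnmt3a were not separated there, at 9.81 to 10.9 reads per kilobase.

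The composition of each family within a library does not depend on the scaling between libraries. It does depend on the gene length used, which includes untranslated sequence. Dnmt1 made up 89.7% ± 0.355 of the reads per kilobase of the DNMT genes in WT and 92.6% ± 1.68 in the knockout, and Dnmt3a 5.25% ± 0.366 and 3.54% ± 1.48. Among the TET genes Tet3 held 62.6% ± 0.619 in WT and 68.1% ± 3.33 in the knockout, and Tet1 7.10% ± 0.832 and 4.16% ± 2.59. The share of Asxl1 in the ASXL pair was 83.0% ± 1.30 in WT and 87.3% ± 1.56 in the knockout. In these 5 shares, and in that of Asxl2, the knockout libraries did not overlap the WT libraries. The Asxl2 share is what Asxl1 leaves, so both give the same result, and shares within a family are not independent. The exact two-sided permutation p was 0.1 for each of the 6, the smallest that 3 against 3 allows (adjusted p = 0.133 over 8 shares), so the design could not reach the threshold. The shares of Dnmt3b (5.07% ± 0.639 and 3.90% ± 1.63) and Tet2 (30.3% ± 1.20 and 27.7% ± 5.44) overlapped, with exact permutation p of 0.5 and 0.6. Single knockout libraries moved 5 of the 8 differences by over 1.5 times. Without knockout replicate 3 that of Tet2 turned from -2.56 to 0.397 percentage points, that of Tet3 went from 5.50 to 3.58 and that of Dnmt3b from -1.17 to -0.255. Without knockout replicate 1 the differences were -1.49 for Tet1 (from -2.94), -0.902 for Dnmt3a (from -1.71), -4.95 for Tet2 and -1.82 for Dnmt3b.

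**Figure D4:**
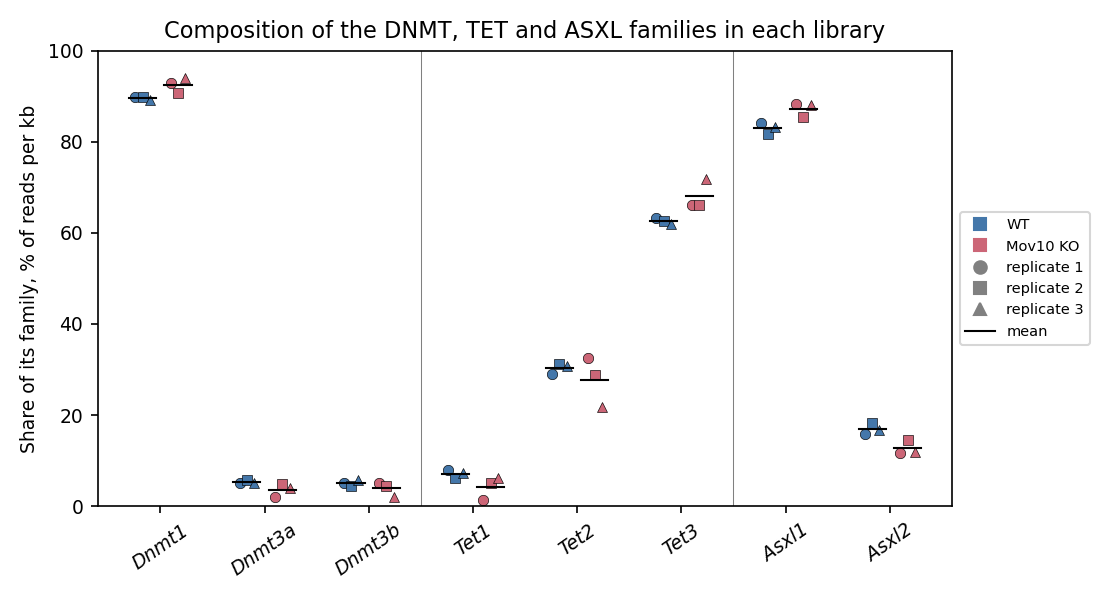
Share of each gene in the summed reads per kilobase of its family, in percent, with 1 point per library (blue WT, red Mov10 KO) and a bar for the mean. Dnmt1, Tet3 and Asxl1 hold the largest shares of their families in all 6 libraries, and their knockout points lie above the WT points.

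Genes that work with the members were read from lists in the same fit, and no list was tested as a set. The called share of each list is given beside the 21.2% of all genes tested. That share is not matched for abundance: fitted alone, 2690 of the 6307 genes averaging 50 normalized reads or more were called. Of 23 partners of DNA methylation and of the TET enzymes, 3 were higher, 3 were lower and 17 were not called (26.1% called, against 21.2%). Their median log2 fold change was -0.19, close to the -0.17 of all genes. Uhrf1, which brings Dnmt1 to newly replicated DNA, rose from 464 ± 38.7 to 879 ± 135, 1.90-fold higher (limma adjusted p = 0.00201). Its libraries held 484, 419 and 488 in WT and 724, 940 and 974 in the knockout, which do not overlap. Dmap1, which binds Dnmt1, rose 1.79-fold, Mbd1, a reader of methylated CpG, rose 1.57-fold, and Ogt, the glycosyltransferase that binds TET proteins, fell 1.38-fold. The other called genes, Oga and Mbd3, fell 1.59-fold and 3.43-fold and are named after their values were seen. The rises numbered 1, 2 and 1 and the falls 1, 0 and 0 when WT replicate 1, 2 or 3 was omitted, and 2 and 5 with library totals.

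Dnmt1 and Uhrf1 are both known to follow S phase, so replication genes were read beside them. Of 37 S phase and proliferation genes 14 rose and 5 fell (51.4% called, against 21.2% of all genes tested). Their median log2 fold change was 0.20, and their summed level was 16000 to 16474 in WT and 21990 to 22783 in the knockout. Rrm1, a subunit of ribonucleotide reductase, rose 2.02-fold, Top2a 1.68-fold, and Mcm4 and Pole, of the replicative helicase and polymerase, 1.85-fold and 1.84-fold. Aurkb, a mitotic kinase, fell 2.28-fold. Without WT replicates 1, 2 and 3 in turn 10, 10 and 9 rose and 2, 3 and 2 fell, and with knockout replicate 2 left out 11 rose and 6 fell. With cyclic loess 7 rose and 6 fell, and with library totals 10 rose and 8 fell. The part of these genes in the Dnmt1 result was not tested.

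Of 9 tested genes of the ASXL and BAP1 complex 5 fell and 0 rose (0 also at an unadjusted p under 0.05, by edgeR and by DESeq2, but 1 without knockout replicate 2). These calls were 55.6% of the genes tested in the list, against 21.2% of all genes tested, and its median log2 fold change was -0.68. The other 4 were not called, and Foxk1, Kdm1b and Ube2o among them had log2 fold changes of 0.34, 0.44 and 0.39. The fallen genes were Hcfc1, a chromatin scaffold, 1.77-fold lower, Mbd5 and Mbd6, which bind the complex, 2.60-fold and 2.81-fold lower, Ogt, and Bap1, the deubiquitinase itself, 1.90-fold lower (97.6 normalized reads in WT against 51.3 in the knockout, limma adjusted p = 0.0324). Bap1, Foxk1, Kdm1b and Ube2o are named after their values were seen. The calls thinned to 2, 1 and 1 without WT replicates 1, 2 and 3 in turn.

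Of 30 tested genes of the KMT2 and COMPASS list 5 rose and 6 fell (36.7% called, against 21.2% of all genes tested). Their median log2 fold change was -0.48. Mllt10, a fusion partner of Kmt2a in leukemia, fell 2.35-fold, and Kmt2d, a paralog methyltransferase, fell from 1003 ± 59.4 to 621 ± 36.4, 1.61-fold lower. Rbbp5, a core subunit shared by these methyltransferases, rose 2.37-fold, while Hcfc1 is also in the ASXL list. Without WT replicates 1, 2 and 3 in turn, 2, 2 and 2 rose and 3, 3 and 3 fell, and with library totals 2 rose and 9 fell.

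Of 16 tested genes of PRC2 and H3K27 demethylation, the enzymes that Kdm6a opposes and its paralogs, 4 rose and 1 fell. These calls were 31.25% of the genes tested in the list, against 21.2% of all genes tested, and its median log2 fold change was 0.07. Rbbp4 and Rbbp7, histone-binding subunits that PRC2 shares with other complexes, rose 2.81-fold and 1.66-fold, and Suz12 rose 1.52-fold. Mtf2, which brings PRC2 to CpG islands, fell 2.47-fold. The methyltransferase Ezh2 was not called, with 368 ± 9.94 normalized reads in WT against 331 ± 36.5 in the knockout (limma adjusted p = 0.365). Without WT replicates 1, 2 and 3 in turn, 2, 2 and 2 rose and 1, 1 and 1 fell, and without knockout replicates 1 and 2 the fallen genes numbered 3 and 3. With library totals 2 rose and 3 fell.

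Of 54 other genes mutated in clonal hematopoiesis or myeloid neoplasia 12 rose and 7 fell (35.2% called, against 21.2% of all genes tested). Their median log2 fold change was -0.05. Smc1a, a cohesin subunit, rose 2.68-fold, Sf3b1, a splicing factor, 2.56-fold, Magt1, a magnesium transporter, 3.49-fold, and Gnb1, a G protein subunit, 2.60-fold. Etv6, a transcriptional repressor, fell 2.89-fold. Trp53, the tumor suppressor, was read at 116 ± 13.7 and 112 ± 14.2 and was not called (limma adjusted p = 0.853). Without WT replicates 1, 2 and 3 in turn, 9, 9 and 9 rose and 4, 4 and 4 fell. The balance turned with library totals, where 9 rose and 16 fell, and with cyclic loess 9 rose and 9 fell.

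**Figure D5:**
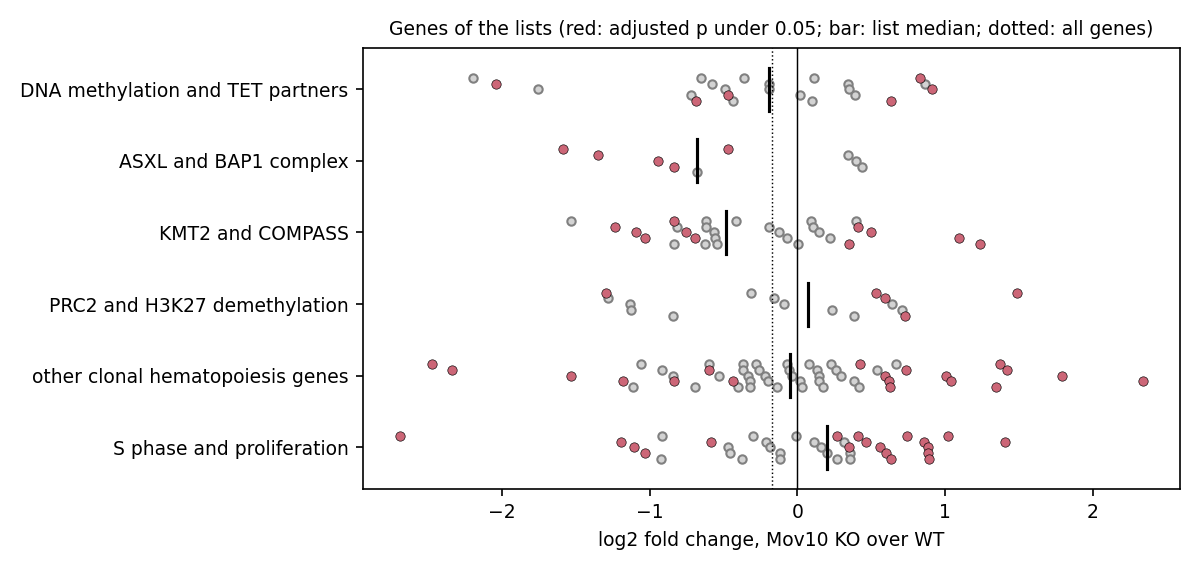
Log2 fold change (Mov10 KO over WT) of the tested genes of 6 lists, with 1 point per gene, red where the adjusted p is under 0.05, a bar for the list median and a dotted line for the median of all genes tested. The medians of the ASXL and KMT2 lists lie left of the dotted line and those of the S phase and PRC2 lists right of it.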

How the data were processed

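The deposited signal values are gene read counts that the authors divided by 1 size factor per library, as the values show: 99.976% of the values above 0 were whole multiples, within 0.05 of a read, of the value of 1 read in their library. GRCm39 is the build named in the submitters' processing notes. The sources used here name no aligner, counting tool, annotation or strand setting. The authors' deposited log2 fold changes, p-values and adjusted p-values come from a test that is not stated. Of 56748 genes listed, 28136 had reads, and 5 whose values were not whole multiples (none a member) were left out. These were Rps29, Camp, Igkc, Ssr4 and Rpl27, and their values were whole multiples of the 1-read values of the opposite genotype. Rps29 under WT replicate 1, at 26.82, is a whole multiple of 1.3411 (knockout replicate 1) and not of 0.6492 (WT replicate 1). For these 5 genes WT and knockout values thus appear under each other's headings. Which headings are right was not tested, and all directions given here follow the headings of the other genes. The columns of WT are headed as controls.

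limma 3.58.1 in R 4.3.3 was fitted to log2(value + 1) of genes averaging 1 normalized read or more. Genotype was the single term, and the prior variance followed a trend with abundance. This fit and that of edgeR were run on simulated data. The simulation gave both genotypes the same dispersion, so it did not cover the wider scatter of the knockout libraries. Alternatives were edgeR 4.0.16 and DESeq2 1.42.0 on recovered reads, limma-voom, other scalings, filters and pseudocounts, thinning to equal depth, array weights, a replicate block and each library left out. Intervals cover the spread between libraries, and reads carry no molecular identifiers. Same-numbered libraries did not deviate together (r = -0.029, -0.005 and -0.021 over 6307 genes), so the numbers were not taken as pairs.

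The members and lists were chosen with earlier results of these data known. In each list up to 4 genes with the smallest p are named, plus 1 in the opposite direction. Kdm6b, Ezh2 and Trp53 were added after their values were seen. Family shares were compared by exact permutation over 20 regroupings. Promoters are RefSeq windows of GRCm38.p6, matched by symbol, and were not compared with the table's coordinates. Figures were drawn with matplotlib 3.10.9.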

Additional observations from a re-analysis of the deposited data

How the results depend on the processing

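Dnmt1 and Kdm6a kept their direction and their call in all 21 alternatives, and 2 members were called higher throughout. No member was called lower as reported, but 2 were with library totals (Kmt2a at -0.48 and Asxl2 at -0.66, while the median of all genes shifted by -0.22), and 1 (Kmt2a) with cyclic loess, 1 when genes had to average 50 reads and 1 with limma-voom. With each library left out in turn 0 to 1 was called lower. Genes that were never called turned their sign: Dnmt3a, Tet3 and Asxl1 to -0.145, -0.053 and -0.171 with library totals, and Tet3 and Asxl1 to -0.052 and -0.226 with cyclic loess. With a library left out Asxl1 ran from -0.03 to 0.19 and Dnmt3a from -0.23 to 0.48. The count over all genes was 3628, of which 1757 were higher and 1871 lower. It was 1239 to 1449 with a WT library left out and 4447 to 4585 with a knockout library left out. Over these fits 836 to 2090 genes were higher and 403 to 2497 lower. At an adjusted p under 0.01 the count was 1427. The lower genes numbered 2887 with library totals and 1158 when genes had to average 50 reads. Higher genes made up 48.4% of calls as reported, 30.8% with library totals, and 65.4% to 68.4% without a WT library. Shares of reads not divided by length differed by 4.30 points for Dnmt1, -3.58 for Dnmt3a, 6.64 for Asxl1 and -6.64 for Asxl2, where the length weights change by construction. Beyond these, the cause was not tested. Mov10 passed in 5 alternatives, among them without knockout replicate 2 (-1.12, adjusted p = 0.00692). With a replicate block, which is not borne out as a pairing, 3245 genes were called, 1593 higher and 1652 lower, Dnmt1 and Kdm6a among them (adjusted p = 1.15e-06 and 1.19e-06), and no member's call changed. Coding lengths were not used here, so that alternative was not run. Depth limits Tet1 most, at 5 to 29 reads per knockout library.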

Other observations

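Within a library, Dnmt1 held 2.15 to 2.54 times the reads of Uhrf1 in WT and 1.85 to 2.59 times in the knockout, so that the ranges overlap. Relative to the summed S phase and proliferation list, Dnmt1 stood at 6.44% to 6.82% in WT and 8.21% to 8.65% in the knockout, ranges that do not overlap. Kdm6a stood at 5.69% to 6.80% of the summed reads of Kdm5c, Eif2s3x, Ddx3x and Usp9x in WT and at 13.3% to 18.4% in the knockout. The reads of Kdm6a over those of Uty were 0.892 to 1.23 in WT and 3.90 to 14.1 in the knockout. The 10 members together held 3383 to 3491 normalized reads in WT and 4352 to 4492 in the knockout. That sum follows the 2 called genes, Dnmt1 (means of 1079 and 1878) and Kdm6a (99.4 and 358). The other 8 were not called, and 4 of the 10 had a negative log2 fold change, so the sum is not a shared rise. These ratios were chosen after the values were seen and are given with no test.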
